A study of Mus musculus with 6 samples.

Results

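Of 2043 single epithelial cells of the mouse jejunum, 120 (5.87%) met a rule for enterocytes with high Apoa4. For each gene, the cell's deposited log2 value was taken above a baseline, the 5th percentile of that gene among cells of the same amplification pool. Members had at least 4.5 for Rbp2, at least 6 for Apoa4, and under 3 for the mean of Chga and Chgb, the granins that mark enteroendocrine cells. The 466 cells that met the Rbp2 and granin limits with less Apoa4 are called lower-Apoa4 cells here, and the remaining 1457 are called other cells. Since the cells were selected on their measured values of these 4 genes, the genes are described below and not tested.

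The cells came from 3 mice aged 120 days, of mixed CD-1 and C57BL/6 background, and the series title concerns ID2 in enteroendocrine differentiation. Each mouse gave 1 anterior jejunum sample (the third of 12 equal pieces of small intestine) and 1 posterior jejunum sample (piece 7), so each region has 3 samples. Cells of villi and of crypts were pooled at an equal ratio, and living EpCAM-positive cells were sorted into plates for MARS-seq, a plate method that tags each captured mRNA molecule with a unique molecular identifier (UMI). The labels used here give no genotype or treatment. The equal pooling and the EpCAM gate set part of any share of cells.

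Enterocytes are born in crypts, move up the villus and are shed at its tip, and they change their transcripts on the way. APOA4 and APOA1 are apolipoproteins that mouse enterocytes place on chylomicrons, the particles that carry dietary fat into lymph, and in mouse Apoa4 is known to be highest toward the villus tip. RBP2 is the retinol-binding protein of absorptive enterocytes.

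The promoters shown are those of the genes on which the results turn: Apoa4 (rule gene), Apoa1 and Fabp1 (changed with high Apoa4) and Fabp2 (differed between regions). They are RefSeq windows of 250 bases before to 50 after each gene's start in GRCm38.p6, all 4 matched by symbol, on the plus strand at chr9:46240594-46240893, chr9:46228380-46228679, chr6:71199629-71199928 and chr3:122894822-122895121. Capitals mark CAAAGTNCA, AGGTCA and TATAAA on either strand. CAAAGTNCA is a looser form of CAAAGTCCA, the core letters of the nuclear receptor HNF4, AGGTCA is a nuclear receptor half-site and TATAAA is the TATA box.
Apoa4: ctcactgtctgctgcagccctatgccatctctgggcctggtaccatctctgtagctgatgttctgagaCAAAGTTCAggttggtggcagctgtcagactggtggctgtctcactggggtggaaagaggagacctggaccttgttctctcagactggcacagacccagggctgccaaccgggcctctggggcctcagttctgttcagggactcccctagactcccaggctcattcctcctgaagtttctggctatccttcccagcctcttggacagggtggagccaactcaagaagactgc
Apoa1: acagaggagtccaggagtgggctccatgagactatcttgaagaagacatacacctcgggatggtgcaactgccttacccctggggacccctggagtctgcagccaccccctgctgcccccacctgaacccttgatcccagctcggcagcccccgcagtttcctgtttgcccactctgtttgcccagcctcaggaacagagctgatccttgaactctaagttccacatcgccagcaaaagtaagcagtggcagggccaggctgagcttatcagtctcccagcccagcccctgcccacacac
Fabp1: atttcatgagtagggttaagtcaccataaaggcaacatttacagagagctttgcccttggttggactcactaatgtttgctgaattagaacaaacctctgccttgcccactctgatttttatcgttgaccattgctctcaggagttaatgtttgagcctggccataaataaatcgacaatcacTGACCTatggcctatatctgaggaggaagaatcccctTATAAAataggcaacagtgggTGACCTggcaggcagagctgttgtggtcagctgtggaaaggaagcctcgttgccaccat
Fabp2: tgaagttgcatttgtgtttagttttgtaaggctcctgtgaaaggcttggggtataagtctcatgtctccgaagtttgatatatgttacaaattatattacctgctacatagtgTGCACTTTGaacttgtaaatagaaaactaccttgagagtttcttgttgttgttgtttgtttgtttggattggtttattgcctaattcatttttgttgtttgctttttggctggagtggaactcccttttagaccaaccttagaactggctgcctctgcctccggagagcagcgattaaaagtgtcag
CAAAGTNCA occurred in the Apoa4 and Fabp2 windows and in 1.41% of 32851 promoter windows of the same length, and the exact CAAAGTCCA in none of the 4 and in 0.475% of all. AGGTCA occurred on the minus strand at 2 places of the Fabp1 window and in 16.3% of all, and TATAAA in the Fabp1 window and in 13.6% of all. None of these letters was in the Apoa1 window. More letter strings than these were looked for in the 4 promoters before these were kept, and a match describes letters only.

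Members were found in every sample, from 7 to 33 cells. The anterior samples of mice 1, 2 and 3 held 7 of 568, 7 of 198 and 30 of 262 cells, which is 1.23%, 3.54% and 11.5% of their cells. The posterior samples held 11 of 511, 32 of 280 and 33 of 224 cells, which is 2.15%, 11.4% and 14.7%. Mouse 1 was lowest in both regions, and the share was lower in the anterior sample in 3 of 3 mice. The Wilson 95% interval ran from 0.598% to 2.52% in anterior mouse 1 and from 10.7% to 20.0% in posterior mouse 3, covering counting error only.

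**Figure D1:**
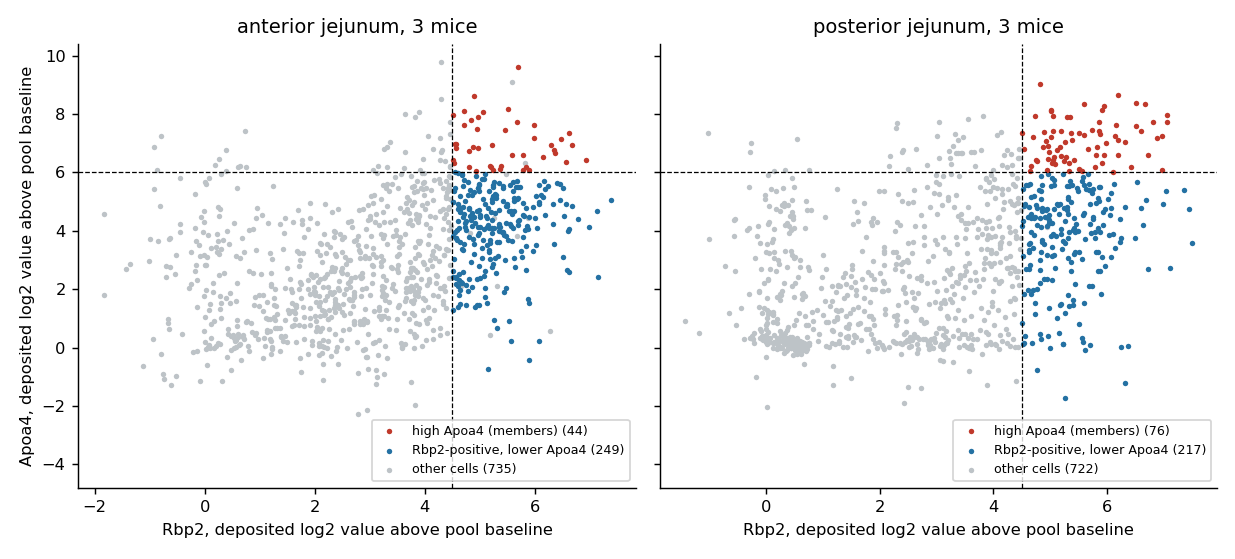
Deposited log2 value above the pool baseline for Apoa4 (vertical axis) against Rbp2 (horizontal axis), 1 point per cell, in anterior and posterior jejunum, with dashed lines at the 2 thresholds. The 44 anterior and 76 posterior members sit at the upper right of a cloud of points that continues across both thresholds.

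The shares averaged 5.41% ± 5.36 of anterior and 9.44% ± 6.52 of posterior cells (SD, n = 3 each), a difference of -4.03 percentage points that was smaller than the spread between mice. The two-sided exact permutation test gave p = 0.5, where 3 against 3 samples cannot go below 0.1. Among Rbp2-positive cells alone, members were 15.0% ± 12.2 anteriorly and 27.3% ± 16.0 posteriorly (exact permutation p = 0.4). Paired by mouse, the two-sided exact sign-flip test gave p = 0.25 for both shares, the smallest it allows with 3 pairs. The direction was not stable: with the pool minimum as the baseline the difference was 0.737 points.

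The thresholds cut through a continuous range. The lowest members for Apoa4 stood at 6.02, 6.04 and 6.04, and the highest cells just below the limit at 6.00, 6.00 and 5.96. For Rbp2 the lowest members stood at 4.51, 4.52 and 4.52, and the nearest cells below at 4.47, 4.47 and 4.46. A further 85 cells had Apoa4 of at least 6 with Rbp2 below 4.5, and 3 cells met both limits but not that on the granins.

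Depth was set beside the classes, since it can decide which cells meet a rule. The median UMI count of members was 1661, 1541 and 1671.5 in anterior mice 1, 2 and 3, against 5776.5, 9404 and 8539 in lower-Apoa4 cells. In posterior mice 1, 2 and 3 it was 8963, 2514 and 2196 in members, against 2146, 5418.5 and 8982.5 in lower-Apoa4 cells. So members were the shallower class in 5 of 6 samples and the deeper one in posterior mouse 1. Over the 6 samples the mean log2 difference of the medians was -1.31, and the two-sided exact sign-flip test gave p = 0.156. That test took the samples as independent, though they came from 3 mice.

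**Figure D2:**
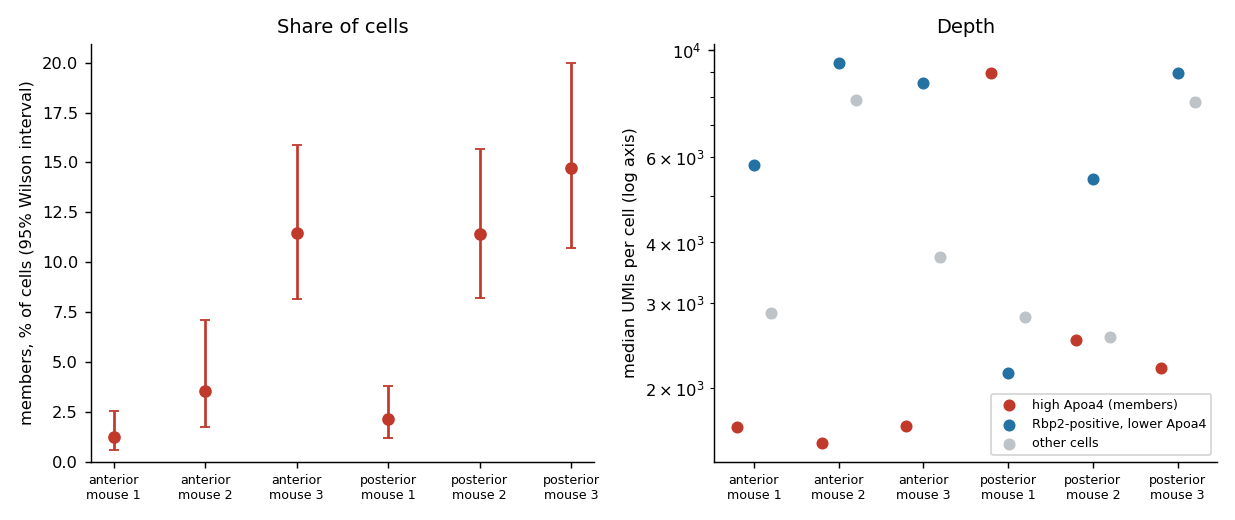
Left, members as a percentage of all cells per sample with 95% Wilson intervals; right, median UMIs per cell (log axis) of members, lower-Apoa4 and other cells. Members made up between 1.23% and 14.7% of cells, and their median depth was below that of lower-Apoa4 cells except in posterior mouse 1.

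The rule itself depends on a correction the authors made. The deposited values are log2 UMI values from which differences between pools and 2 continuous covariates had been removed, and the UMI counts could be recovered from them. When the same thresholds were applied to log2 of the recovered, size-scaled UMI counts, 356 cells qualified, with a median of 3766 UMIs: 116 of the 120 members, 158 lower-Apoa4 cells and 82 other cells. With those thresholds the anterior samples held 19, 84 and 108 and the posterior samples 9, 70 and 66 qualifying cells, and the regional difference in share was 10.3 percentage points, the opposite direction. The Apoa4 levels of the classes overlap, and the 120 cells are those high after the correction.

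Levels from here on are given in CP10K, the recovered UMIs of a gene for every 10000 in its cell, counted over the 5674 genes of both tables less the 4 rule genes, and averaged over the cells of a class in a sample. Apoa4 averaged 231, 901 and 790 CP10K in members of anterior mice 1, 2 and 3 and 164, 686 and 550 CP10K in members of posterior mice 1, 2 and 3. Lower-Apoa4 cells held 43.4, 204 and 162 CP10K anteriorly and 20.9, 89.3 and 93.6 CP10K posteriorly, and other cells 25.4, 124 and 193 CP10K and 10.9, 93.7 and 90.1 CP10K. Each sample's members stood highest, while members of mouse 1 were close to the lower-Apoa4 cells of anterior mice 2 and 3, so mouse 1 was low in Apoa4 in all 3 classes. Single members ranged from 85.7 to 2069 CP10K with a median of 474, and lower-Apoa4 cells from 0 to 573 with a median of 61.4.

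Rbp2 averaged 69.5, 96.4 and 106 CP10K in anterior and 67.6, 97.3 and 93.7 CP10K in posterior members, against 67.8, 114 and 128 CP10K and 49.8, 85.4 and 89.1 CP10K in lower-Apoa4 cells, so these 2 classes overlapped. Other cells held 6.09 to 36.0 CP10K. Apoa4 (9:46240696-46243459, plus strand) and Apoa1 lie on chromosome 9 of GRCm38 in the same apolipoprotein gene cluster.

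The label was checked against markers. The sum of 10 enterocyte markers, the rule genes left out, was 798 to 1417 CP10K in members, 438 to 1353 in lower-Apoa4 cells and 141 to 626 in other cells. Apoa1 made up much of it. Without Apoa1 the sum was 288, 343 and 244 CP10K in anterior and 619, 345 and 527 CP10K in posterior members, against 345, 499.5 and 405 CP10K and 341, 612 and 719 CP10K in lower-Apoa4 cells, and 100.4 to 307 CP10K in other cells. It was thus above other cells in 6 of 6 samples, and above lower-Apoa4 cells in posterior mouse 1 only.

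The sum of 17 villus-tip genes was 55.1, 59.8 and 200.2 CP10K in anterior and 50.8, 210.3 and 267 CP10K in posterior members, against 53.4, 48.5 and 67.8 CP10K and 90.6, 87.2 and 104 CP10K in lower-Apoa4 cells, and 69.1, 57.3 and 78.7 CP10K and 89.6, 97.0 and 104 CP10K in other cells. Members stood above lower-Apoa4 cells in 5 of 6 samples, with anterior mouse 1 close to them, and below other cells in both mouse 1 samples. The sum of 13 lower-villus genes was 350.1, 160.2 and 155 CP10K in anterior and 729, 137 and 218 CP10K in posterior members, against 199, 339.5 and 336 CP10K and 364, 233 and 454 CP10K in lower-Apoa4 cells, and 102 to 472 CP10K in other cells. It was higher in members than in lower-Apoa4 cells in both mouse 1 samples and lower in the other 4. Reg3b, 1 gene of this list, made up much of the rise in mouse 1. It was 157 and 431 CP10K in members of anterior and posterior mouse 1, against 53.5 and 177 CP10K in lower-Apoa4 cells. Dmbt1, of the same list, was lower in members in 6 of 6 samples. On the summed level, though not on each gene of the list, both mouse 1 samples therefore go against an upper-villus label. The cells are called by their rule, high-Apoa4 cells or members. Posterior mouse 1 went against an upper-villus label on the sum of tip genes as well. Its 11 members also had 9.56 CP10K of the nuclear RNA Malat1, against 68.7 to 246 in members of the other samples. In lower-Apoa4 cells Malat1 was 68.4, 45.7 and 81.2 CP10K anteriorly and 122, 74.0 and 74.1 CP10K posteriorly. Other cells held 82.5 to 138 CP10K. Members were thus above lower-Apoa4 cells in 5 of 6 samples, the 5 in which members had fewer UMIs. The nuclear RNA Neat1, 1 of the villus-tip genes, was higher in members in 4 of 6 samples. The part of RNA quality in these differences was not tested.

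Markers of other cell types were measured in the same way. The sum of 10 goblet markers was lower in members in 6 of 6 samples, at 120 to 770 CP10K, against 169 to 1202 CP10K in lower-Apoa4 cells and 662 to 1785 CP10K in other cells. Of the defining goblet genes, averaged over all cells of a class, the transcription factor Atoh1 was 0 CP10K in members (0 UMIs) and 0.387 in lower-Apoa4 cells (34 UMIs). Spdef was 0.0217 CP10K in members (2 UMIs) and 0.936 in lower-Apoa4 cells (75 UMIs). These UMI totals come from classes of unequal size and depth. The averages over all cells also weigh each sample by its cells, and those weights differ between classes. The 8 Paneth markers summed to 17.4 to 133 CP10K in members, 6.29 to 113 CP10K in lower-Apoa4 cells and 21.3 to 162 CP10K in other cells. Members were above lower-Apoa4 cells for this sum in 4 of 6 samples. The 3 enteroendocrine markers summed to 0.104 to 11.1 CP10K in members, 3.72 to 22.0 CP10K in lower-Apoa4 cells and 23.4 to 127 CP10K in other cells, higher in members than in lower-Apoa4 cells in 2 of 6 samples. The 8 transit-amplifying markers summed to 1.32 to 3.11 CP10K in members, 1.00 to 5.80 in lower-Apoa4 cells and 3.59 to 9.37 in other cells. Members were above lower-Apoa4 cells in 4 of 6 samples for these. The 4 stem markers summed to 0.0704 to 1.66, 0.904 to 1.86 and 2.09 to 3.62 CP10K in the same order, above lower-Apoa4 cells in 2 of 6. Tuft, T and stromal or endothelial cells were each represented by 1 measured marker, and no listed B, plasma or myeloid marker was in both tables. Averaged over all cells of a class, Sh2d6 (4 UMIs in members) was 0.145 CP10K in members, 0.259 in lower-Apoa4 and 3.13 in other cells. Cd8a (7 UMIs) was 0.272, 0.240 and 0.211 CP10K, and Pecam1 (24 UMIs) 1.17, 0.610 and 0.793 CP10K in the same order. Members thus stood highest for Cd8a and Pecam1, on few UMIs. Ribosomal protein genes were lower in members in 6 of 6 samples (141 to 641 against 246 to 998 CP10K). The part of these differences in the gene results below was not tested.

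Against lower-Apoa4 cells, members held more of the apolipoprotein transcript Apoa1 and of Slc23a4, and less of the mucin transcript Muc2, Fabp1, Nkiras2 and Psmb1. Of 4712 genes tested with limma on log2(CP10K + 0.2), with each sample as a block, 3 rose in members (0.0637% of the genes) and 4 fell (0.0849%) at a Benjamini-Hochberg adjusted p below 0.05, while 768 had an unadjusted p below 0.05. The third gene that rose, Gm10680, overlaps the rule gene Apoa4 and is only described. Both samples of a mouse come from the same animal, and with 1 value per mouse (645 genes with an unadjusted p below 0.05) limma called 0 genes, as it did with a pseudocount of 1 (652) or without anterior mouse 2 (629). Without posterior mouse 1 it called 59 genes, all 7 among them.

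Apoa1 (9:46228580-46230466, plus strand) averaged 510, 573 and 750 CP10K in anterior members, against 98.5, 321 and 351 CP10K in anterior lower-Apoa4 cells. In the posterior samples it averaged 349, 722 and 890 CP10K in members, against 97.6, 487 and 635 CP10K in lower-Apoa4 cells. It was higher in members in 6 of 6 samples, most of all in mouse 1, although the levels of the 2 classes overlap between mice. The log2 difference was 1.20 (SE 0.19, limma adjusted p = 0.00103). The call held in 15 of 22 alternatives (adjusted p from 4.26e-25 to 0.421) and was lost without anterior mouse 2 (adjusted p = 0.0676). Apoa1 had a UMI in 120 of 120 members.

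Gm10680 is annotated as an antisense gene at chr9:46242621-46243529 on the minus strand, and 839 of its 909 bases lie within Apoa4 on the plus strand. The sources used here do not say whether strand was used in counting, so reads of Gm10680 and of the rule gene Apoa4 cannot be told apart. Its values are therefore a description with no test. It averaged 6.73, 15.4 and 13.1 CP10K in anterior and 1.40, 9.31 and 6.55 CP10K in posterior members, against 0.781, 2.81 and 2.79 CP10K and 0.238, 0.988 and 2.27 CP10K in lower-Apoa4 cells.

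Slc23a4, a solute carrier related to ascorbate transporters, averaged 0, 4.40 and 7.92 CP10K in anterior and 1.65, 18.5 and 13.3 CP10K in posterior members, against 0.174, 0.434 and 1.77 CP10K and 0, 2.42 and 0.0954 CP10K in lower-Apoa4 cells. It was higher in members in 5 of 6 samples (log2 2.59, SE 0.59, limma adjusted p = 0.0432), and the call was lost when any 1 sample other than anterior or posterior mouse 1 was left out.

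**Figure D3:**
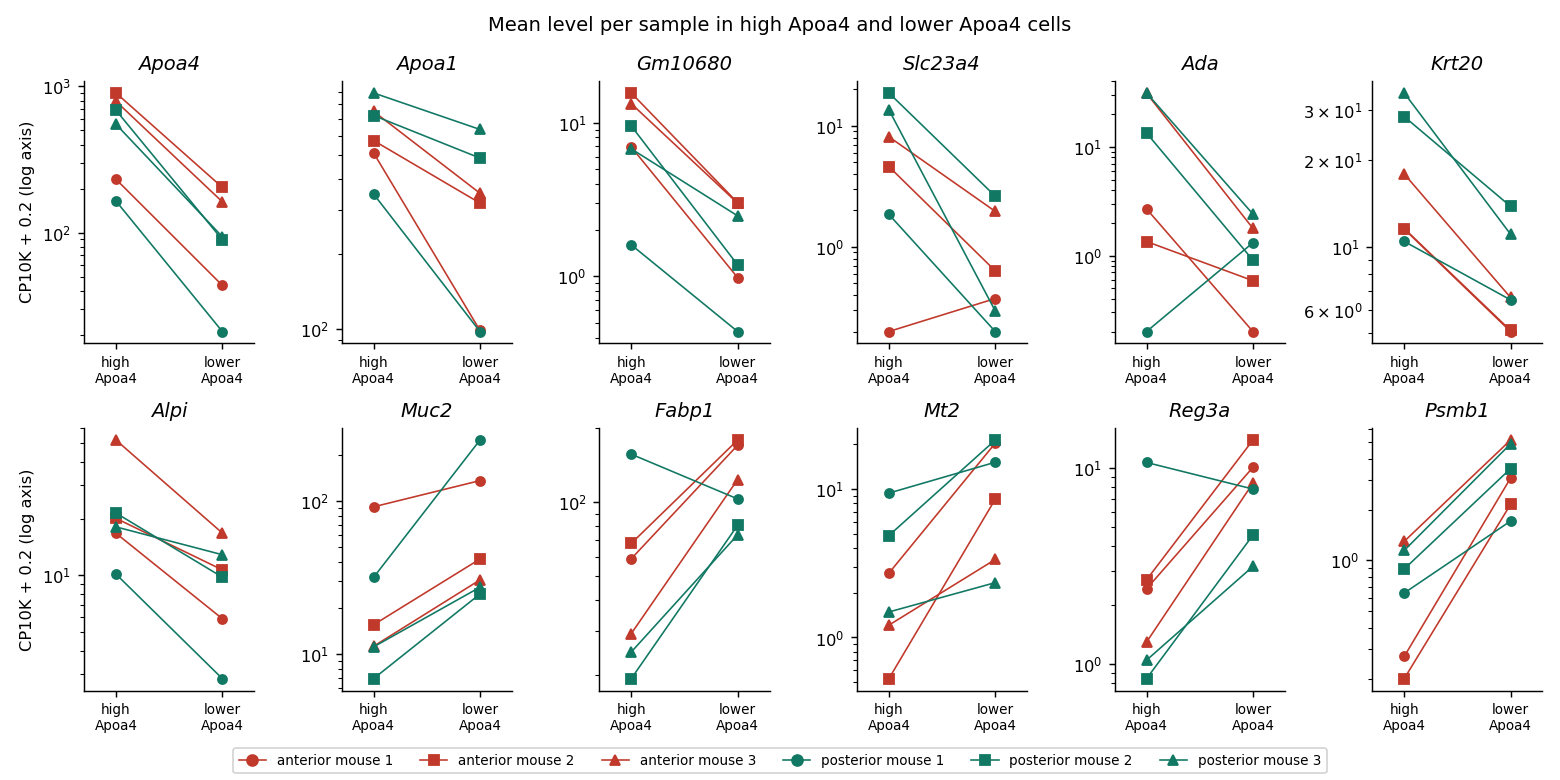
Mean CP10K + 0.2 (log axes) in high-Apoa4 and lower-Apoa4 cells for 12 genes, with 1 line per sample. Apoa4 belongs to the rule and Gm10680 overlaps it; Apoa1, Krt20 and Alpi are higher in members in 6 of 6 samples, and posterior mouse 1 runs against the other samples for Ada, Fabp1 and Reg3a.

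Of the genes that fell, Muc2, which encodes the gel-forming mucin of goblet cells, was lower in members in 6 of 6 samples. Its levels were 91.4, 15.4 and 11.1 CP10K in anterior and 31.6, 6.76 and 11.0 CP10K in posterior members, against 135, 41.6 and 30.4 CP10K and 249, 24.6 and 27.2 CP10K in lower-Apoa4 cells. The log2 difference was -1.59 (SE 0.31, limma adjusted p = 0.0133, 0.0676 without anterior mouse 2 and 0.107 without posterior mouse 2). Muc2 UMIs were present in 85 of the 120 members.

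Fabp1 (6:71199827-71205023, plus strand), a fatty acid-binding protein of liver and intestine, averaged 58.8, 67.9 and 29.1 CP10K in anterior members, against 170, 179 and 124 CP10K in lower-Apoa4 cells. In the posterior samples it averaged 157, 19.0 and 24.5 CP10K in members, against 103, 80.5 and 73.6 CP10K in lower-Apoa4 cells. It was lower in members in 5 of 6 samples and higher in posterior mouse 1 (log2 -1.34, SE 0.28, limma adjusted p = 0.0199). The call held in 6 of 22 alternatives, and was lost without any 1 of the anterior samples (adjusted p = 0.162, 0.135 and 0.0774) or posterior mouse 2 (0.162). Among cells of 1000 to 4000 UMIs, where 3 samples kept both classes, Fabp1 was 22.3, 17.5 and 10.9 CP10K in members of anterior mouse 3 and posterior mice 2 and 3, against 31.2, 25.7 and 13.6 CP10K in lower-Apoa4 cells.

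The other genes that fell were low in members. Nkiras2, an inhibitor of NF-kappa-B signalling, had UMIs in 4 of the 120 members and averaged 0 to 0.178 CP10K, against 1.21 to 2.30 CP10K in lower-Apoa4 cells (limma adjusted p = 0.0209). Psmb1, a proteasome subunit, averaged 0 to 1.10 CP10K in members and 1.51 to 4.95 CP10K in lower-Apoa4 cells (log2 -2.40, SE 0.54, limma adjusted p = 0.0426). Yet 3 UMIs in a sample's members correspond to 0.225 to 1.18 CP10K, so such low levels are near what the depth can show. The added 0.2 CP10K shrinks the log2 change of such low genes, while low genes were also at 0 more often in members. Whether the falls are understated or overstated was not tested. Leaving out any 1 sample other than posterior mouse 1 ended the call of Psmb1, and that of Nkiras2 was lost without anterior mouse 2 (0.108), anterior mouse 3 (0.0737), posterior mouse 2 (0.142) or posterior mouse 3 (0.0671).

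Low genes were at 0 more often in members. There, 680 to 2058 of the 4712 genes were at 0 in a sample, against 5 to 149 in lower-Apoa4 cells, and the median log2 difference over all genes was -0.42, with 26.3% above 0. Over the 128 genes of at least 10 CP10K the median was -0.15, with 44.5% above 0. It was -0.27 over genes of at least 1 CP10K and -0.20 over those of at least 3 CP10K. List medians below are given beside -0.42, but the lists were not matched for abundance. For lists of abundant genes a reference nearer 0 applies.

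In the list of apolipoprotein and chylomicron genes, 1 of 16 tested rose (Apoa1), none fell and 11 were above 0, with a median of 0.23. Apoc3, an apolipoprotein that slows triglyceride clearance, averaged 73.5, 107 and 64.9 CP10K in anterior and 52.1, 79.1 and 84.0 CP10K in posterior members, against 17.3, 83.3 and 57.4 CP10K and 11.3, 66.8 and 71.1 CP10K in lower-Apoa4 cells (log2 0.88, limma adjusted p = 0.138). Apob, the structural protein of chylomicrons, had a log2 difference of 0.94 (limma adjusted p = 0.172). Creb3l3, a transcription factor of lipid metabolism, differed by 0.77 (adjusted p = 0.299).

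Fatty acid uptake and droplet genes were mixed. Of 11 tested, none rose, Fabp1 fell and 5 were above 0, with a median of -0.01. Cidec, a lipid droplet protein, was 0.678 to 6.52 CP10K in members and 0.222 to 0.714 CP10K in lower-Apoa4 cells, higher in members in 6 of 6 samples (log2 1.93, limma adjusted p = 0.111). Slc27a4, a fatty acid transport protein, was also higher in 6 of 6 (log2 1.02, limma adjusted p = 0.163). Of 21 fatty acid oxidation genes none was called and 3 were above 0 (median -0.52), and of 8 retinoid genes none was called and 1 was above 0 (median -0.87).

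The zonation lists held 1 call, Fabp1 in the mid-villus list. Of 17 villus-tip genes 10 were above 0 (median 0.16), of 13 mid-villus genes 3 (median -0.53) and of 12 lower-villus genes 3 (median -0.81). Ada, adenosine deaminase, was 2.48, 1.15 and 30.9 CP10K in anterior and 0, 13.2 and 31.1 CP10K in posterior members, against 0, 0.387 and 1.58 CP10K and 1.11, 0.708 and 2.21 CP10K in lower-Apoa4 cells. It was higher in members in 5 of 6 samples but was not called (log2 2.32, SE 0.61, limma adjusted p = 0.109); without posterior mouse 1 it was called (log2 3.33, limma adjusted p = 0.000182, 1.46e-05 to 0.476 over 22 alternatives).

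Krt20, a keratin of differentiated enterocytes, was 10.2 to 34.1 CP10K in members and 4.86 to 13.6 CP10K in lower-Apoa4 cells, higher in 6 of 6 samples (log2 1.19, limma adjusted p = 0.112). Enpp3, an ectonucleotidase, was higher in 5 of 6 and at 0 in members of posterior mouse 1 (log2 1.25, limma adjusted p = 0.259). Of the lower-villus list, the antimicrobial lectin gene Reg3a was lower in 5 of 6 samples (log2 -1.78, limma adjusted p = 0.109), and the cytokine gene Il18 was lower in 6 of 6 (log2 -2.08, limma adjusted p = 0.111).

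**Figure D4:**
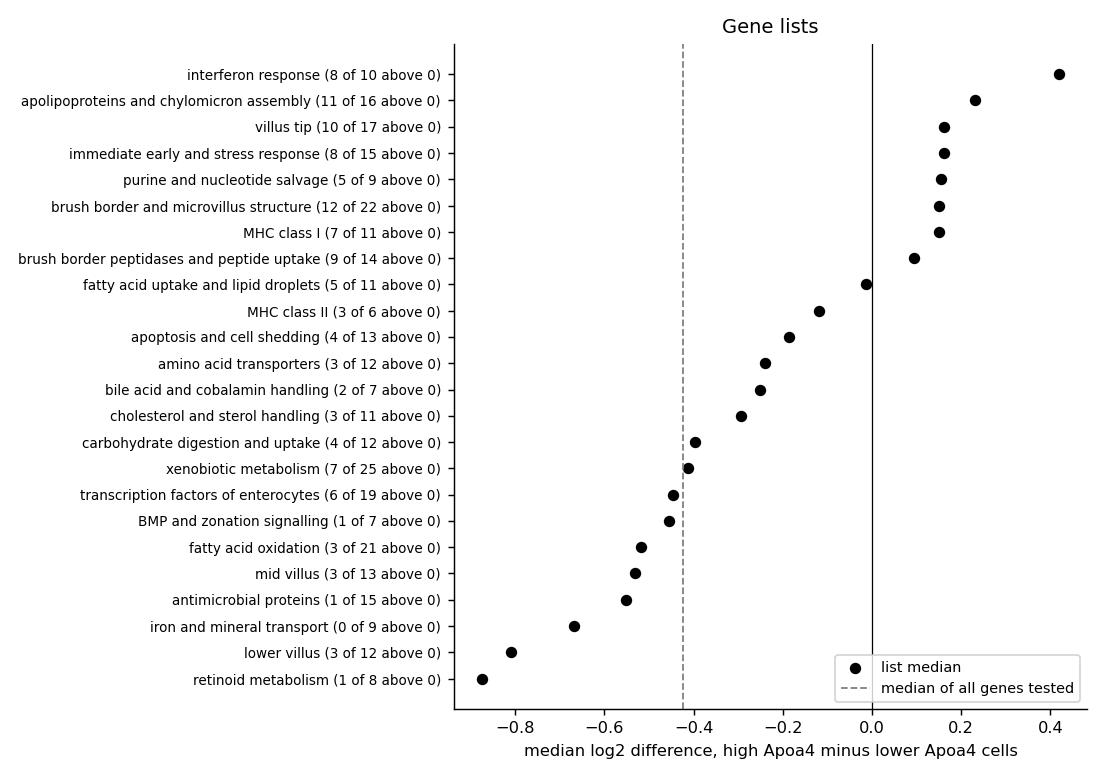
Median log2 difference between high-Apoa4 and lower-Apoa4 cells for 24 gene lists (points), with the number of tested genes above 0; the dashed line is the median of all 4712 genes, -0.42. Interferon response, apolipoprotein and villus-tip lists lie highest, and retinoid and lower-villus lists lowest. Over genes of at least 10 CP10K the median was -0.15, and the lists were not matched for abundance.

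Brush-border genes were not called. Of 22 structural genes 12 were above 0 (median 0.15), among them Espn, an actin bundler of microvilli, at 1.26 to 33.0 CP10K in members and 1.92 to 11.4 CP10K in lower-Apoa4 cells (log2 1.26, limma adjusted p = 0.147). Of 14 peptidase and peptide-uptake genes 9 were above 0 (median 0.09), and Ggt1, gamma-glutamyltransferase, differed by 0.97 (limma adjusted p = 0.149). Alpi, the intestinal alkaline phosphatase of the brush border, was 16.5, 19.8 and 51.8 CP10K in anterior and 9.96, 21.2 and 17.9 CP10K in posterior members, against 5.70, 10.5 and 16.6 CP10K and 2.65, 9.59 and 12.7 CP10K in lower-Apoa4 cells. Alpi was thus higher in members in every sample (log2 1.25, limma adjusted p = 0.111). Of 12 carbohydrate genes 4 were above 0 (median -0.40), with the disaccharidase gene Sis at -1.17 (limma adjusted p = 0.185).

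Among the remaining lists, 8 of 10 interferon response genes were above 0 (median 0.42), among them Isg15, a ubiquitin-like modifier, at a log2 difference of 1.52 (limma adjusted p = 0.124). None of the 10 was called, yet their summed level was higher in members in 6 of 6 samples, at 37.0 to 88.2 CP10K, against 18.5 to 59.5 CP10K in lower-Apoa4 cells. Of 15 antimicrobial genes 1 was above 0 (median -0.55), and of 9 iron and mineral genes 0 (median -0.67). The metallothionein gene Mt2 was lower in members in 6 of 6 samples (log2 -1.98, limma adjusted p = 0.0578, 1.09e-07 to 0.879 over 22 alternatives). Epcam, the epithelial adhesion molecule used for the sort and singled out after its values were seen, was 9.91 to 57.7 CP10K in members and 6.64 to 21.1 CP10K in lower-Apoa4 cells, higher in 6 of 6 (log2 1.05, limma adjusted p = 0.138).

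Within members, the genes whose levels ran most like Apoa4 from cell to cell were Apoa1, Igsf23, Creb3l2, Gm10680 and Cldn7. The mean Spearman correlation within the 6 samples was 0.52 for Apoa1 (0.22 to 0.75), 0.47 for Igsf23 (0.26 to 0.67) and 0.47 for Creb3l2 (0.14 to 0.91). It was 0.45 for Gm10680 (0.24 to 0.61) and 0.43 for Cldn7 (0.21 to 0.82). These are the highest of 676 genes with a UMI in at least 25% of members. Gm10680 overlaps Apoa4. Members were selected on Apoa4, so all of these values are descriptions that support nothing. Cells of a sample share library and pool, and the correlation of Apoa4 with the cell's UMI count was 0.15. Fabp1 stood near the other end at -0.24 (-0.61 to 0.21).

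The number of genes per cell was compared at equal depth. Thinned to 1000 UMIs, members had a median of 469, 411 and 376 genes in anterior and 468, 357 and 348 in posterior samples, against 519, 472 and 482 and 442, 438 and 438 in lower-Apoa4 cells; 11 members and 48 lower-Apoa4 cells were too shallow. Unthinned, the medians were 481.5 to 1360 in members and 586 to 1517 in lower-Apoa4 cells. At equal depth members had fewer genes in 5 of 6 samples, with a mean difference of -60.4 genes (two-sided exact sign-flip p = 0.0625, where 6 pairs allow 0.03125). The 6 pairs came from 3 mice and were taken as independent, while 3 pairs could not go below 0.25. The thinned counts include the rule genes. Apoa4 took 1.71 to 7.80% of the UMIs of members, against 0.231 to 2.10% in lower-Apoa4 cells. Part of the difference in genes is therefore set by the rule, and how much was not tested.

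Between regions, members of the anterior jejunum held less Fabp2, the intestinal fatty acid-binding protein. Of 4145 genes tested with limma, 0% were higher and 0.0241% lower in anterior members, a single call, and 152 had an unadjusted p below 0.05. Fabp2 (3:122895072-122899506, plus strand) averaged 64.9, 60.9 and 45.3 CP10K in anterior members of mice 1, 2 and 3, against 296, 171 and 340 CP10K in posterior members. The log2 difference was -2.19 (SE 0.45, limma adjusted p = 0.00507). Leaving out anterior mouse 2 (adjusted p = 0.266), anterior mouse 3 (0.467) or posterior mouse 3 (0.377) ended the call, and over 21 alternatives the adjusted p ran from 5.92e-09 to 0.891.

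Lower-Apoa4 cells had Fabp2 at 88.8, 123 and 98.8 CP10K anteriorly and 168, 360 and 470 CP10K posteriorly, the same direction. Other cells held 33.8, 39.0 and 24.5 CP10K anteriorly and 45.5, 132 and 179 CP10K posteriorly, so the direction was not particular to members. The regional difference of the member contrast was -0.62 for Fabp2 (SE 0.46, limma adjusted p = 0.984), and no difference between the classes passed the test. Over 4712 genes limma called 0% in either direction for that difference, with 193 at an unadjusted p below 0.05, and 1 without posterior mouse 1.

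With the mouse as a block, limma called 2 regional genes, Fabp2 (adjusted p = 5.92e-09) and Cd74 (adjusted p = 0.0101). Cd74, the invariant chain of MHC class II, averaged 10.3, 1.53 and 1.31 CP10K in anterior members, against 16.2, 44.7 and 31.1 CP10K in posterior members (log2 -3.24, SE 0.80, limma adjusted p = 0.106 without the block). All 6 MHC class II genes tested were below 0, with a median of -2.06, beside -0.12 over all genes, and none was called. Their summed level in lower-Apoa4 cells was 8.14, 18.1 and 4.15 CP10K anteriorly and 19.2, 92.8 and 74.4 CP10K posteriorly. Other cells held 4.90, 10.8 and 2.08 CP10K and 10.9, 57.1 and 39.7 CP10K, so the direction was not particular to members. The regenerating-family lectin gene Reg1 ran the other way, at 2.70, 34.9 and 22.99 CP10K in anterior members, against 0.149, 1.67 and 3.47 CP10K in posterior members (log2 3.32, limma adjusted p = 0.464). Reg1 was higher anteriorly in 3 of 3 mice, with overlap between mice. In lower-Apoa4 and in other cells, Cd74 was likewise lower and Reg1 higher anteriorly in 3 of 3 mice.

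**Figure D5:**
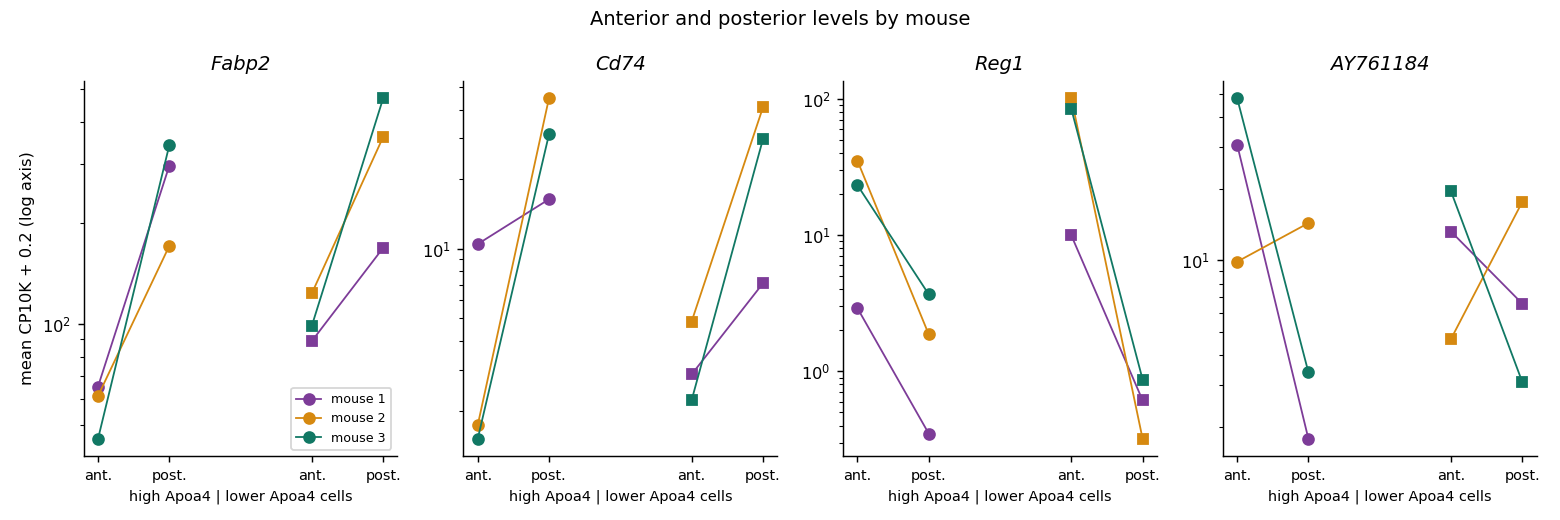
Mean CP10K + 0.2 (log axes) of Fabp2, Cd74, Reg1 and AY761184 in anterior (left) and posterior (right) cells, 1 line per mouse, for high-Apoa4 cells (circles) and lower-Apoa4 cells (squares). Fabp2 and Cd74 were lower and Reg1 higher anteriorly in 3 of 3 mice in both classes.

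Other regional differences among members were not called. AY761184, a defensin-family gene whose reads may be shared with near-identical copies, was 30.5, 9.68 and 47.9 CP10K in anterior and 1.58, 14.2 and 3.19 CP10K in posterior members (limma adjusted p = 0.975). Zg16, a lectin of goblet granules, was 169, 156 and 99.3 CP10K in anterior and 44.3, 43.2 and 75.1 CP10K in posterior members (adjusted p = 0.975), and the goblet list had a regional median of 1.15, with 7 of 8 genes above 0. In lower-Apoa4 cells Zg16 was 180, 110 and 99.8 CP10K anteriorly and 186, 49.4 and 53.5 CP10K posteriorly. Other cells held more, at 412, 382 and 310 CP10K and 391, 159 and 304 CP10K. The hormone gene Gip was 18.7, 4.49 and 0.173 CP10K in anterior members, against 0.989, 0 and 0 CP10K in posterior members. In lower-Apoa4 cells Gip was 160, 3.46 and 1.43 CP10K anteriorly and 1.70, 0.188 and 0 CP10K posteriorly. Other cells held 108, 49.3 and 0.735 CP10K and 22.2, 1.46 and 0.0458 CP10K. The direction of Gip was thus not particular to members. Anterior mice 1 and 2 rest on 7 members each.

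The plates carried an unnamed sort label, positive or negative. Members were 7.43% of positive and 7.31% of negative cells on average over the 6 samples, higher among positive cells in 2 of 6 (two-sided exact sign-flip p = 0.969). Samples of the same mouse were taken as independent in that test. The 192 cell barcodes are reused on every plate, so pool and barcode together identify a cell, and no barcode occurred more than once within a pool. The anterior cells of mouse 1 filled 2 plates and its posterior cells 3, while the remaining samples had 1 plate apiece, so in mice 2 and 3 a plate effect and a sample effect cannot be told apart.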

How the data were processed

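MARS-seq cells of 6 samples were analysed, 3 mice by 2 regions. Tools named per the submitters' processing notes include STAR 2.6.1b, UMI-tools 1.0.0, cutadapt 1.18, bcl2fastq and, for statistics, R 3.5.1, with builds GRCm38 and mm10. The authors deposited 1 table of corrected log2 values per region, made separately, and the gene and cell filters are not given in the sources used here. Per the file headers, the deposited plate table gives the wells, pools and sort label.

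Tested on the values, each was log2(UMIs/size factor + 1) less a pool offset and 2 covariates. Reversing these steps returned whole numbers of UMIs for 100.0% of values (tolerance 0.01) in both tables, 6839 anterior and 5831 posterior genes, with 1640578 to 3157105 UMIs per sample. Counts were scaled to CP10K in Python 3.11.15, and class means of at least 5 cells were tested with limma 3.58.1 (R 4.3.3; trend; genes of at least 0.2 CP10K). Limma weighs each class mean alike whatever its number of cells. Recovery and limma were tested on simulated data. Recovery returned the simulated UMIs. Limma gave the right direction for the changed genes it called, missed more small rises than small falls, put unchanged genes slightly below 0 and called some of them, more so when abundant genes had changed. P-values measure the spread between these samples.

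Members, lists and tests were chosen with earlier results of these data known. Genes could be named if among the 12 calls of smallest p in each direction with a log2 change of at least 1 or the 4 of smallest p in a list (between regions, 10 and 3); only some of these are printed, and which ones was decided after their values were seen; Alpi and Epcam were added after their values were seen. The numbers pair samples of the same mouse per the labels; deviations of same-mouse members correlated at 0.14, -0.03 and 0.13. Alternatives were other pseudocounts, filters, thresholds, depth limits, summed UMIs, deposited values, blocks and leaving out each sample. Gene symbols were given for 5671 of 5674 shared genes. Cells were sorted singly, so no doublet caller was run.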

Additional observations from a re-analysis of the deposited data

Results flagged for a closer look

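Posterior mouse 1 stood apart from the other 5 samples in 5 of the 6 results listed here, where 31 groups of 6 values were looked at and chance flags about 1 in 20. The groups share the same 6 samples, so the flags are not independent, and an excess over chance was not tested. Members of posterior mouse 1 had a higher median UMI count than its lower-Apoa4 cells, by 2.06 on the log2 scale, against -2.61 to -1.11 in the other samples. In the same sample the log2 difference of members and lower-Apoa4 cells was 0.60 for Fabp1 (-2.08 to -1.39 elsewhere), 0.81 for Fabp2 (-1.12 to -0.45), 0.45 for Reg3a (-2.69 to -1.59) and -4.10 for Enpp3 (1.63 to 3.60). The part of depth in these differences was not tested. In anterior mouse 1, with 7 members, Slc27a4 differed by 2.15, against 0.46 to 1.02 in the other samples.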

How the results depend on the processing

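Members against lower-Apoa4 cells gave 7 calls, and the number depended on nearly every choice. It was 11 with a pseudocount of 0.05, 0 with 1, 3 with no filter, 2 with a filter of 1 CP10K, 280 with summed UMIs, 2 with at least 10 cells, 4 and 3 with Apoa4 thresholds of 5.5 and 6.5, and 2 on the deposited values. Leaving out 1 sample gave 0 (anterior mouse 2) to 59 (posterior mouse 1), with 2 without anterior mouse 3 and 1 without posterior mouse 2. Alternatives chosen after seeing the data gave 12 in cells of 1000 to 4000 UMIs (3 samples with both classes), 3 in cells with no Muc2 UMI, 72 with thresholds on recovered values and 104 without both samples of mouse 1. Between regions, the single call was 3 with summed UMIs, 2 with an Apoa4 threshold of 5.5 or without mouse 1, 0 with no filter, a filter of 1 CP10K, at least 10 cells, cells of at least 2000 UMIs, deposited values, 1000 to 4000 UMIs, no Muc2 UMI or recovered thresholds, and 0 to 3 (without anterior mouse 1) with 1 sample left out. The regional difference of the contrast gave 0 to 1 call with 1 sample left out and 1 without mouse 1, and could not be fitted without Muc2 cells.

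With no replicate block the member contrast gave 0 calls, as did 1 value per mouse, and with the mouse as a block the regions gave 2. Without the block, and with samples of a mouse taken as independent, the differences of -1.31 (log2 median UMIs, p = 0.0476) and -60.4 genes (p = 0.0411, both exact permutation tests) passed 0.05. The rule genes were among the UMIs counted for the latter, so the rule sets part of it. The regional difference in share reversed to 0.737 and 10.3 points of all cells, and 2.17 and 16.99 points of Rbp2-positive cells, with the minimum as baseline and with recovered thresholds. Of 803 gene values under alternatives, 623 kept direction and side of the threshold, 103 lost and 70 gained a call, and 7 reversed: Fabp2 between classes (0.13 in 1000 to 4000 UMIs, 0.31 with recovered thresholds), Ggt1 (-0.20) and Mt2 (0.86) in 1000 to 4000 UMIs, Ckmt1 (0.10) and Apob (-0.026) without Muc2 cells, and Enpp3 between regions (-0.0076 without posterior mouse 1, to 3.60 without posterior mouse 3). The causes were not tested. Depth limits genes under about 1 CP10K in members.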
